A study of Mus musculus with 2 samples.

Results

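Mouse splenic CD8+ T cells, genotype WT, that had been held for 30 h on plates coated with 20 pmol of the peptide-MHC ligand L6F were set against splenic CD8+ T cells kept at rest. The labels give every culture this genotype and the 30 h reading, and the age of the mice is not given in them. The ligand was biotinylated monomeric H-2Db, an MHC class I molecule, loaded with the peptide that the labels name L6F and held on the plate by streptavidin, and no antigen-presenting cell is named in the protocols. The other cultures received L6F at 80 pmol or a related peptide, M9C, at 20, 2 or 0.2 pmol. Each of the 6 conditions was 1 culture, so a value from this comparison has no replicate behind it and no test or p-value is given. A cell was assigned to a culture when its most abundant hashtag (an antibody-bound DNA barcode) had at least 20 counts and at least 80% of all its hashtag counts, and it was kept if it held 500 or more genes and no more than 10% mitochondrial counts. The rule gave 2477 cells for 20 pmol L6F and 755 rested cells, 3232 of the 10600 cells that passed in the whole series and of its 13439 barcodes.

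A T cell that has not met its antigen is quiescent: it is small, makes little RNA and protein, and circulates between blood and lymphoid organs under the control of transcription factors such as Klf2. Binding of the T cell receptor to a peptide held by MHC class I starts Erk, NFAT and NF-kB signalling, and over the following day the cell enlarges, builds ribosomes, rewires its metabolism and enters the cell cycle. Because such a cell makes more RNA of nearly every kind, a gene can take a smaller share of the RNA while its number of molecules per cell stays level or goes up. Counts of genes are therefore given on both scales for all measured genes, and values per cell stand beside those in CPM for the genes where the scales differ most.

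The label on which the whole comparison rests is the hashtag, so the 15-base barcodes that marked the cultures are shown in the letters of the deposited feature list.

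rested: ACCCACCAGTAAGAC

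20 pmol L6F: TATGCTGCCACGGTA

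The median rested cell had 1040.0 hashtag counts, 89.8% of them from its top hashtag, and the median 20 pmol L6F cell had 6091 counts and 98.5%. Of all barcodes in the series, 1768 (13.2%) had no hashtag that passed the rule. The gene minimum removed 828 of the 1583 barcodes assigned to rest (52.3%) and 31 of the 2515 assigned to 20 pmol L6F (1.23%). The rested cells kept are thus the deeper part of that culture. In the 828 removed barcodes Klf2 stood at 786.0 CPM (counts scaled to 1000000 UMIs per condition) and Il2ra at 19.1, against 563 and 20.7 in the rested cells kept.

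Rested cells together held 918920 unique molecular identifiers (UMIs, each 1 captured RNA molecule) and 20 pmol L6F cells 16014100. The median cell held 1056.0 UMIs and 576 genes at rest and 6354 UMIs and 2291 genes after L6F, a 6.02-fold difference in UMIs. Cells on L6F were higher almost without overlap: 79 of them (3.19%) lay at or below the rested 95th percentile, and 23 rested cells (3.05%) reached the L6F 5th percentile. Expression is given as CPM and as UMIs per 100 cells. A single UMI was worth 1.09 CPM at rest and 0.0624 CPM after L6F, so rested values are the less precise. Their intervals (exact Poisson for CPM, exact Clopper-Pearson for ratios and shares, 95%) cover counting error only, not variation between cultures. With mean UMIs per cell 5.31-fold apart, a log2 ratio in UMIs per cell equals the log2 ratio in CPM plus 2.41.

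**Figure D1:**
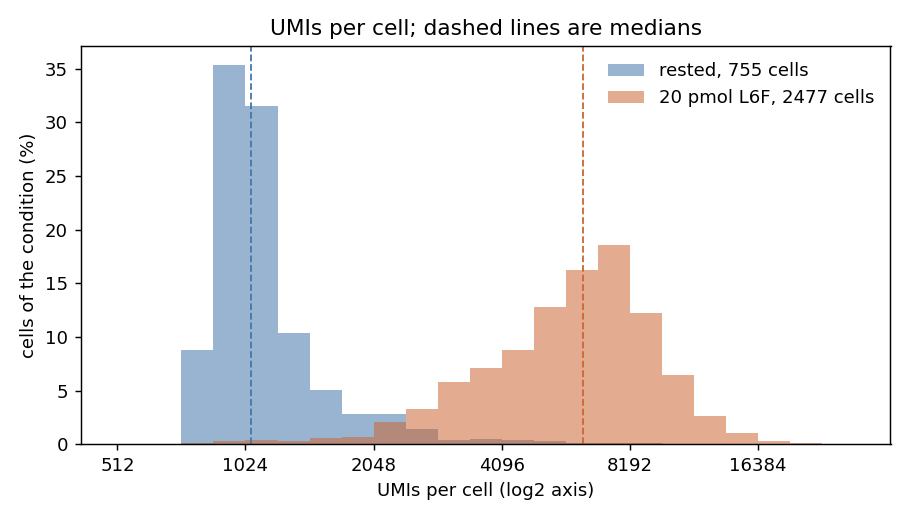
Share of the cells of each condition (vertical axis, percent) by UMIs per cell (horizontal log2 axis), for 755 rested and 2477 20 pmol L6F cells, with dashed lines at the medians of 1056.0 and 6354 UMIs. The distributions overlap only in their tails.

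Markers of the labelled cell type were present. The 5 CD3 and CD8 markers summed to 2925 CPM at rest and 1836 CPM after L6F, with at least 1 such UMI in 93.5% and 98.9% of cells. Cd4 had no UMI in either condition. The 8 B cell markers summed to 267 CPM at rest and 254 CPM after L6F, with a UMI in 27.3% and 74.4% of cells. Most of these UMIs were of Ighm, the mu heavy-chain gene (221 at rest and 3892 after L6F), while Ms4a1 and Pax5 had none in either condition. Trav14-1 supplied 95% of alpha-chain V-segment UMIs at rest (152 of 160) and 83.4% after L6F (297 of 356), and Trbv13-3 supplied 98.1% of beta-chain ones at rest (52 of 53) and 69.6% after L6F (94 of 135). Markers of several other cell types were higher at rest, where few cells held them. The 7 neutrophil markers summed to 173 CPM at rest, in 4 cells, and to 5.18 CPM after L6F, in 3 cells. The 9 macrophage or monocyte markers summed to 151 and 16.7 CPM, the 7 erythroid markers to 199 and 7.87 CPM, the 7 NK cell markers to 58.8 and 6.93 CPM, and the 8 basophil and mast cell markers to 29.4 and 0.749 CPM. The 8 gamma-delta T cell markers summed to 467 and 106 CPM, but were not confined to few cells, with a UMI in 33.9% of rested and 37.7% of L6F cells. Most of these UMIs were of Trdc, which encodes the delta-chain constant region and had UMIs in 230 rested and 862 L6F cells. The 10 dendritic cell markers summed to 15.2 CPM at rest and 38.3 after L6F. Further, 13 rested cells held over 3 times the rested median of UMIs and together 7.04% of the rested UMIs, and 7 of them had no CD3 or CD8 marker UMI.

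Of 32285 genes, 15378 had a UMI in either condition and 7716 reached 10 CPM in at least 1 of them, which is the measured set used below. A gene is called higher or lower when its ratio was at least 2-fold and its interval excluded equality. A measured gene under 10 CPM in 1 condition was measured only through the other, which fixes its direction. In CPM, 1103 measured genes (14.3%) were higher after 20 pmol L6F and 1078 (14.0%) were lower. When CPM was recomputed without the ribosomal protein and mitochondrial genes, Malat1 and Gm42418, 742 genes were higher and 1756 lower, so the near-even split depends on the scale. At 1000 or more genes per cell, which left 47 rested cells, 274 genes were higher in CPM and 859 lower, and per cell 2716 were higher and 345 lower. Over all cells kept, in UMIs per cell, 7084 genes (91.8%) were higher and 75 (0.972%) were lower. The median measured gene had a log2 ratio of 0.08 in CPM and 2.48 in UMIs per cell. Of the 1078 genes lower in CPM, 446 were still at least 2-fold higher per cell, 557 passed neither limit per cell, and 75 were lower on both scales. The last group includes 19 genes that under 10 rested cells held. Among these were Prtn3, Elane, Mpo, Hbb-bs and Hbb-bt, genes of granulocyte precursors and red cells, and 97.8% of the rested Prtn3 UMIs lay in the 13 deepest rested cells. Without cells above 3 times their condition's median UMIs, none of the 5 was lower per cell, with log2 ratios of 0.46 for Elane to 2.32 for Mpo. Mpo and Hbb-bs then had no rested UMI and were set at the floor of 3 counts. The other 56 were held by 10 or more rested cells.

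**Figure D2:**
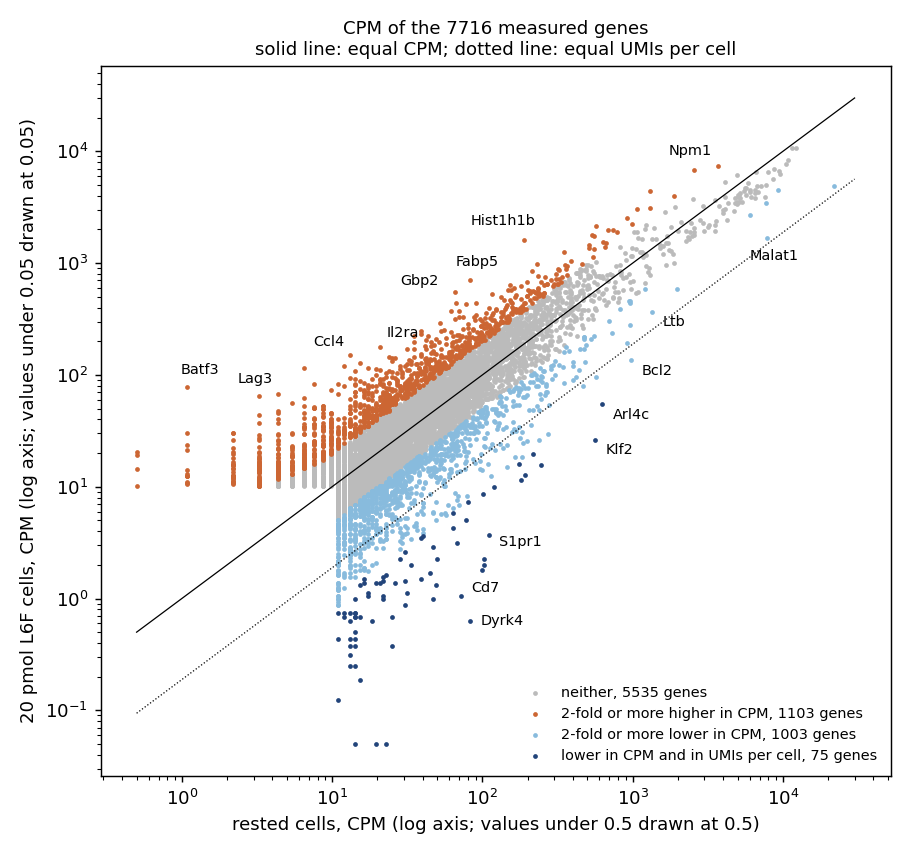
CPM in rested cells (horizontal log axis) against CPM in 20 pmol L6F cells (vertical log axis) for 7716 measured genes, 1 point each. Orange points are the 1103 genes at least 2-fold higher in CPM, light blue the 1003 lower in CPM only, and dark blue the 75 lower in CPM and in UMIs per cell, which lie under the dotted line of equal UMIs per cell.

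Klf2 and S1pr1, genes of quiescence and recirculation, were among the genes with the lowest ratios on both scales. Klf2 (chr8:72319033-72321656, GRCm38), a zinc-finger factor that keeps naive T cells quiescent and circulating, stood at 563 CPM at rest (517 UMIs) and 26.3 CPM after L6F, 21.4-fold lower (18.8 to 24.4). Per 100 cells that was 68.5 UMIs at rest and 17.0 after L6F. S1pr1 (chr3:115710433-115715072), a target of Klf2 whose product lets T cells leave lymphoid organs, was 29.8-fold lower in CPM (21.4 to 41.9), from 109.9 to 3.68, with 13.4 and 2.38 UMIs per 100 cells. Klf3, a repressor of the same factor family, went from 244 to 15.6 CPM. Among measured genes with UMIs in both conditions, Dyrk4, a DYRK-family kinase, had the lowest ratio, with 76 UMIs in 755 rested cells against 10 in 2477 L6F cells (82.7 and 0.624 CPM, 132-fold lower, 68.2 to 287). Cd7, an immunoglobulin-family surface protein of T cells, had 71.8 and 1.06 CPM. S1pr1, Dyrk4 and Cd7 were under 10 CPM after L6F and so measured only through their rested level, which fixes their direction in CPM.

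Other genes lower on both scales were Arl4c, a small GTPase of the Arf family, with 624 CPM at rest and 54.6 after L6F, and Acp5, an acid phosphatase, with 181 and 11.4 CPM. Igfbp4, Ypel3, Samd9l and the transcription factor gene Zbtb20 were 15.3-, 15.1-, 15.1- and 22.3-fold lower in CPM. In UMIs per cell these 6 genes were still 2.15-fold (Arl4c) to 4.19-fold (Zbtb20) lower. Zbtb20 was under 10 CPM after L6F and so measured only through its rested level, which fixes its direction in CPM. The 34 genes of the naive and quiescence list had a median log2 ratio of -1.55 in CPM, against 0.08 over all measured genes. In CPM 22 were lower and 1 higher, against 14.0% and 14.3% of all measured genes. The lower ones include S1pr1, and any other member under 10 CPM after L6F had its direction fixed in the same way. Per cell 9 of the 34 were lower (Klf2, Klf3, Pik3ip1, S1pr1, Igfbp4, Tmem71, Cd55, Arl4c and Ypel3), against 0.972% of all measured genes. Another 16 were higher per cell, against 91.8% of all measured genes. Ccr7, a homing receptor gene, was among the 9 lower in CPM that passed neither limit per cell, with 236 and 80.3 CPM but 28.7 and 51.9 UMIs per 100 cells. At 1000 or more genes per cell, which left 47 rested cells, Ccr7 had a log2 CPM ratio of 0.21, the opposite direction. Il7r, the receptor chain for the survival cytokine IL-7, was 7.50-fold lower in CPM (6.23 to 9.0), with 22.5 and 15.9 UMIs per 100 cells. Tcf7, Bach2, Foxo1 and Satb1, factors of naive and memory T cells, passed no limit in CPM, with log2 ratios of -0.78, -0.03, -0.78 and -0.69. The immune GTPase gene Gimap7 was the 1 member of the list higher in CPM, at 34.8 and 72.3.

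The same genes were then compared cell by cell at equal depth. After every cell was thinned to 1000 UMIs, which kept 464 rested and 2467 L6F cells and left out 291 and 10, Klf2 was detected in 39.2% of rested cells (34.8 to 43.8) and 2.35% of L6F cells (1.79 to 3.03). Without thinning the shares were 45.7% and 13.2%. Arl4c was detected in 45.3% and 5.51% of thinned cells. The median thinned cell carried 6 UMIs of the naive and quiescence list at rest and 2 after L6F, and the list was absent from 1.72% and 8.31% of cells. No cell type in the data lacks these genes and has enough cells to give the share that free RNA in the droplets would produce, so that part was not tested.

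**Figure D3:**
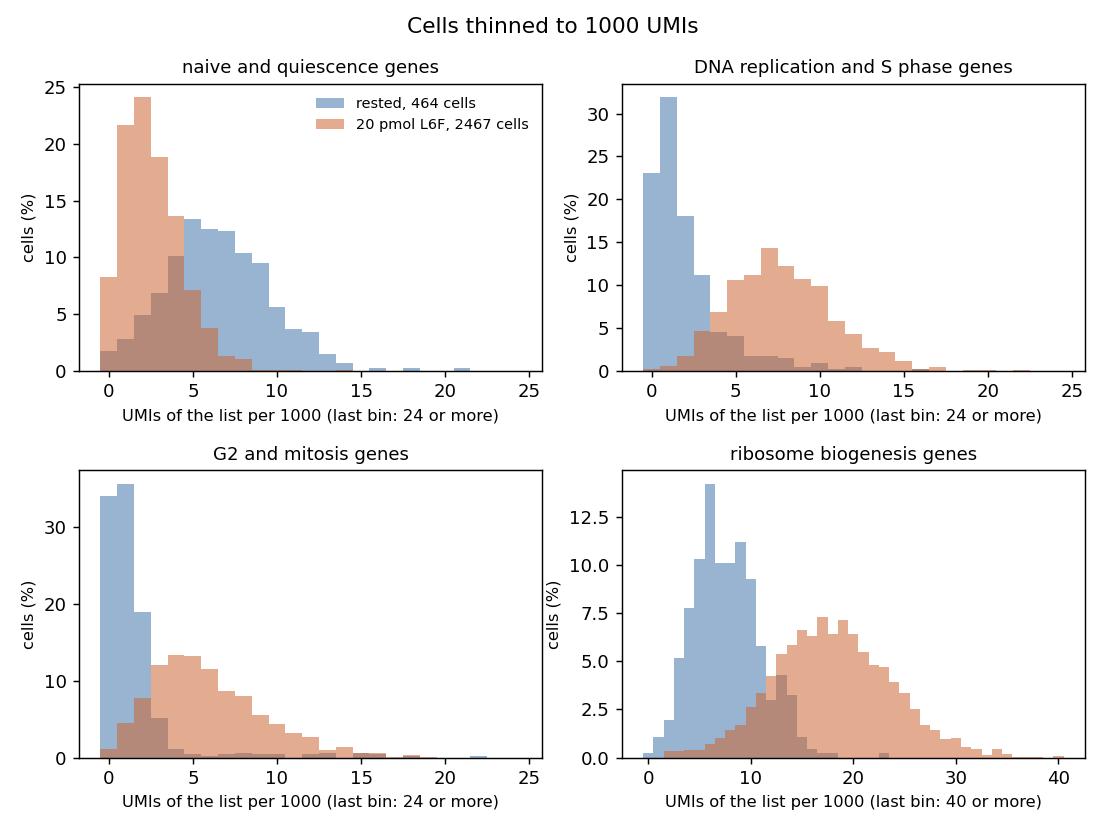
Share of cells (vertical axes, percent) by UMIs of 4 gene lists per 1000 UMIs (horizontal axes), in 464 rested and 2467 20 pmol L6F cells thinned to 1000 UMIs. Rested cells lie to the right for naive and quiescence genes (median 6 against 2) and to the left for S phase (1 against 7), mitosis (1 against 5) and ribosome biogenesis genes (7 against 18).

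Genes of migration and of memory-like cells were also lower in share. Among 16 measured trafficking receptors and integrins, 8 were lower in CPM and 0 higher (median log2 ratio -1.11), against 14.0% and 14.3% of all measured genes, and 2 of them, Ccr9 and Itgae, were lower per cell as well. In the 79 L6F cells no deeper than the rested 95th percentile the list median was 0.0486. Ccr9 and Itgae had log2 ratios above 0 on both scales there. A gene without a UMI in the 79 cells was set at the floor of 3 counts, which alone can put a ratio above 0. At 1000 or more genes per cell the list median per cell was -0.39, against 1.29 over all cells kept. Ccr9, the receptor for the gut chemokine CCL25, had 13 UMIs at rest and 6 after L6F. It was measured only through its rested level, which fixes its direction in CPM. Itga4, the alpha-4 integrin chain, had 114 and 12.6 CPM, and its partner Itgb7 had 137 and 32.9. Cxcr3, Gpr183 and the integrin genes Itgal, Itgb1 and Itgb2 passed no limit in CPM. In the memory-like list 5 of 8 were lower in CPM and 1 higher. Il18r1, a chain of the IL-18 receptor, had 64.2 and 6.49 CPM, Klrd1, which encodes the lectin receptor CD94, 53.3 and 5.74, and Ms4a4b, a tetraspanning membrane protein, 1961 and 582. Klrk1, which encodes NKG2D, was 3.36-fold higher (1.42 to 10.4, 5 rested UMIs). Klrk1 was measured only through its L6F level, and Il18r1 and Klrd1 only through their rested level, which fixes their direction in CPM. NK cell markers were higher at rest too (58.8 against 6.93 CPM), and their part in these values was not tested. In 610 rested and 1138 L6F cells left when cells with at least 2 UMIs of another cell type's markers were removed, the median log2 CPM ratios of the trafficking and memory-like lists were -1.10 and -1.69.

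The antigen receptor and its proximal kinases took a smaller share of the RNA after L6F. Of 26 measured genes 8 were lower in CPM and 1 higher, against 14.0% and 14.3% of all measured genes. Per cell 23 were higher and 0 lower, against 91.8% of all measured genes higher. Cd8a stood at 472 and 382 CPM, 1.24-fold lower (1.12 to 1.36), and at 57.5 and 247 UMIs per 100 cells. Lck, the kinase bound to CD8, had 555 and 223 CPM. Txk, a Tec-family kinase of resting T cells, had the lowest ratio in the list, 7.79-fold lower (6.51 to 9.30), and Rasgrp1, which activates Ras below the receptor, was 3.60-fold lower. Zap70, the kinase recruited to the receptor chains, had 86.0 and 111 CPM and passed no limit. Sh2d2a, an adaptor induced in activated T cells, was the 1 member higher in CPM (81.6 and 191).

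Il2ra was among the activation receptors higher in CPM. It (chr2:11642807-11693193) encodes the high-affinity chain of the IL-2 receptor and had 19 UMIs at rest and 2825 after L6F. In CPM that was 20.7 (12.4 to 32.3) and 176 (170.0 to 183), 8.53-fold higher (5.45 to 14.2), and per 100 cells 2.52 and 114 UMIs. In thinned cells it was detected in 2.80% at rest and 16.7% after L6F. Il2ra was 1 of 10 genes higher in CPM among the 18 measured activation and costimulatory receptors, against 14.3% of all measured genes, and Cd48 was the 1 lower. Cd69, an early activation marker that opposes S1PR1 at the surface, was 2.56-fold higher (1.96 to 3.41, 59.9 to 153 CPM). The TNF-receptor family members Tnfrsf9 (4-1BB) and Tnfrsf4 (OX40) had 6.53 and 7.62 CPM at rest and 45.2 and 51.6 after L6F, each from under 10 rested UMIs. Both were measured only through their L6F level. Tnfrsf18, Cd27, Cd5 and Cd2 passed no limit in CPM.

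Of 11 inhibitory receptors 6 were measured, each under 10 CPM at rest and so only through its L6F level, which fixes their direction. Their values are given as a description. Lag3, which binds MHC class II, went from 4 UMIs to 1083 (4.35 to 67.6 CPM, 15.5-fold, 6.05 to 57.1), and Cd160 likewise from 4 UMIs to 732. Pdcd1, which encodes PD-1, had 6.53 and 23.8 CPM, Btla 8.71 and 31.9, and Cd200 8.71 and 52.8. Ctla4 had 1 UMI at rest and 375 after L6F, a ratio of 21.5 with an interval of 3.84 to 852. None of the 6 had more than 8 rested UMIs, so the ratios are loosely bounded while the L6F levels are not.

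Transcripts below the receptor's pathways were mixed at 30 h. Egr1 and Egr3, factors induced through Erk and NFAT, were 5.27-fold (2.54 to 13.2) and 4.46-fold (1.73 to 16.5) higher in CPM, and their co-repressor Nab2 3.99-fold. Jun, an AP-1 subunit, was 5.15-fold lower in CPM (4.10 to 6.43) with 13.8 and 14.2 UMIs per 100 cells. In all, 5 genes of the 12 in the Erk-linked list passed the limit upward in CPM and 2 downward, against 14.3% and 14.0% of all measured genes. Of 10 NFAT and calcium linked genes 5 were higher: Zbtb32, a repressor of cytokine genes (3.26 to 43.5 CPM), Hivep3, Nr4a3, Rgs1 and Bhlhe40. Zbtb32, Egr1 and Egr3 were under 10 CPM at rest and so measured only through their L6F level, which fixes their direction in CPM. At 1000 or more genes per cell Egr3, Nr4a3 and Bhlhe40 had log2 CPM ratios of -0.0832, -0.73 and -0.26, the opposite direction. In the NF-kB list 2 of 14 were higher, Relb and the survival gene Bcl2a1b, beside 14.3% of all measured genes. Bcl2a1b went from 3 UMIs to 1044, 19.97-fold with an interval of 6.81 to 97.0, and it shares sequence with close paralogs. With 3 rested UMIs it too was measured only through its L6F level. Myc, which drives growth after activation, passed no limit in CPM (71.8 and 89.5; 1.25-fold, 0.973 to 1.62) and had 8.74 and 57.9 UMIs per 100 cells. Mxd4, an antagonist of Myc, was the 1 gene of the 7 in its network lower in CPM (31.6 and 3.87). It was measured only through its rested level, which fixes its direction in CPM.

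Of 10 measured cytokine and chemokine genes 4 were higher in CPM and 3 lower, against 14.3% and 14.0% of all measured genes. The chemokine genes Ccl4 and Ccl3 were 11.6-fold (6.62 to 22.4) and 5.19-fold (3.14 to 9.31) higher, at 151 and 84.8 CPM after L6F. Ifng, the interferon of effector T cells, had 6.53 and 34.0 CPM, and Mif had 790.1 and 1907. Ifng was measured only through its L6F level. Ltb, which encodes lymphotoxin beta, was lower in CPM (1339 to 369, 3.63-fold, 3.41 to 3.86), as were Tnfsf8 (CD30 ligand) and Ccl5. At 1000 or more genes per cell the log2 CPM ratio of Ltb was 0.12, and in the 79 shallow L6F cells that of Ccl5 was 0.55. Ccl5, a chemokine of memory cells, lay in 44 rested cells, 177 CPM at rest and 27.1 after L6F. Ltb and Ccl5 had 163 and 21.6 UMIs per 100 rested cells and 239 and 17.5 per 100 L6F cells, and passed no limit on that scale. Tnf had 25 and 23 CPM and passed none in CPM. Il2 was hardly seen, with 1 UMI at rest and 59 after L6F (3.68 CPM), under the 10 CPM needed to be measured.

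Some factors of effector differentiation were among the highest ratios. Batf3, a partner of Jun proteins and of IRF factors, had 1 UMI at rest and 1250 after L6F (78.1 CPM), a ratio of 71.7 with a counting interval of 12.9 to 2835. Irf8 and Irf4 went from 12 and 10.9 CPM to 119.8 and 82.9, and Tbx21, which encodes T-bet, from 2 UMIs to 422. These 4 and Batf were the 5 of 16 measured effector and memory factors that were higher in CPM, against 14.3% of all measured genes. Batf3 and Tbx21 were under 10 CPM at rest and so measured only through their L6F level, which fixes their direction. Id2 and Runx1 were lower, and Eomes, Id3, Runx3, Myb and Stat4 passed no limit. In the cytotoxic list 3 of 11 were higher in CPM and 2 lower, against 14.3% and 14.0% of all measured genes. Gzmb, which encodes granzyme B, had 39.2 and 248 CPM (6.33-fold, 4.56 to 9.05), but 23 of its 36 rested UMIs lay in the 13 deepest rested cells. Without the cells above 3 times their condition's median the log2 ratio of Gzmb was 4.03 against 2.66 with them. In thinned cells it was found in 1.72% and 17.0%. The granule genes Nkg7 and Ctsw were 3.41-fold and 5.90-fold lower in CPM, with 116 and 69.4 UMIs per 100 cells at rest and 181 and 62.5 after L6F. Prf1, which encodes perforin, passed no limit in CPM (log2 ratio -0.84).

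Of 28 interferon responsive genes 6 were higher in CPM and 9 lower, against 14.3% and 14.0% of all measured genes. The higher ones included the guanylate-binding protein and immunity-related GTPase genes Gbp2, Gbp5, Gbp6 and Iigp1, with Zbp1. Gbp2 (chr3:142620602-142638008) had 60 UMIs at rest and 8784 after L6F, or 65.3 (49.8 to 84.0) and 549 (537 to 560.1) CPM, 8.40-fold higher (6.52 to 11), and was detected in 6.47% of thinned rested and 39.0% of thinned L6F cells. Iigp1 had 15.2 and 127 CPM. The lower ones included Irf7, Rtp4, Ifi206, Ifi203 and Xaf1, genes better known from type I interferon, and also Gbp8, Gbp9, Ly6e and Socs1. In the 79 shallow L6F cells Irf7, Rtp4 and Xaf1 had log2 CPM ratios of 2.27, 1.12 and 1.16, the opposite direction. Irf7, the factor that amplifies type I interferon, had 12 UMIs at rest and 35 after L6F (13.1 and 2.19 CPM). Over all cells kept it was measured only through its rested level, which fixes its direction in CPM. Isg15 and Irf9 had log2 CPM ratios of -0.88 and -0.92 and Irf1 0.60, passing no limit. The GBP genes are near copies of one another, so their shares of reads are uncertain.

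Gbp2 had the highest ratio of the list, and the 250 bases before its RefSeq start (GRCm38.p6, chr3:142620413-142620662, + strand) are printed with the letters of the match in capitals. The motif searched, the core of an interferon response element, is GAAA, any 2 bases, then GAAA. The match lies on the reverse strand.

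Gbp2: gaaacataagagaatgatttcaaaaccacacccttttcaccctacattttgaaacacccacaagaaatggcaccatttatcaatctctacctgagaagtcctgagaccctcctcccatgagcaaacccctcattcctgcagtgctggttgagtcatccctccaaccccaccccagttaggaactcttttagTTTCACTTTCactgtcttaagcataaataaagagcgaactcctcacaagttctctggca

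The motif, searched on both strands, was found in the promoters of all 4 guanylate-binding protein genes that the RefSeq table holds of 8 looked for (Gbp2, Gbp3, Gbp5 and Gbp7) and in 3.46% of the 27025 genes with a promoter there. Of these, Gbp3 and Gbp7 passed no limit in CPM (log2 ratios 0.89 and -0.15).

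Most S phase and mitosis genes were higher. Of 48 DNA replication and S phase genes, 46 were higher in CPM (median log2 ratio 1.79), as were 40 of 45 G2 and mitosis genes (median 1.72), and no gene of either list was lower. The shares in CPM stand beside 14.3% of all measured genes. Per cell all 48 and all 45 were higher, as were 91.8% of all measured genes. Mcm10, a DNA replication factor, had 6 UMIs at rest and 987 after L6F, 9.44-fold higher in CPM (4.32 to 25.8). Mcm10 was under 10 CPM at rest and so measured only through its L6F level, which fixes its direction in CPM. Tk1, thymidine kinase, was 7.65-fold higher, Hells, a chromatin remodeller of replicating cells, 6.07-fold, and Uhrf1, which carries DNA methylation through replication, 5.91-fold. Hist1h1b, a linker histone of S phase, had 190.4 and 1613 CPM, and Pclaf, a PCNA clamp factor, 66.4 and 439. Of mitotic genes, Ccnb1 (cyclin B1) had 25 and 143 CPM, Ccna2 (cyclin A2) 20.7 and 111, Birc5 (survivin) 90.3 and 442, and Hmgb2 232 and 991. Of 15 G1 cyclins, kinases and inhibitors 4 were higher in CPM and 2 lower, against 14.3% and 14.0% of all measured genes. Cdkn1b, which encodes the inhibitor p27 that holds cells in G1, was 4.97-fold lower in CPM (4.12 to 5.98), and the kinase gene Cdk4 2.18-fold higher. Ccnd2 and Ccnd3, the D-type cyclins, passed no limit in CPM.

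Several of these genes had a large share of their rested UMIs in few cells. The 13 deepest rested cells held 7.04% of rested UMIs but 59.8% of rested Mki67 UMIs, 56.6% of Hist1h1b, 56.5% of Ccnb1, 39.8% of Top2a, 37.3% of Birc5 and 16.9% of Mcm5, against 0.580% of Klf2. Without cells above 3 times their condition's median UMIs the median log2 CPM ratio was 2.38 for the mitosis list and 2.05 for the S phase list. With each cell weighing the same it was 2.58 and 2.29. Among the 47 rested cells with 1000 or more genes and the L6F cells that also reached it, the medians were -0.42 and 0.25. In thinned cells, 23.1% of rested and 0.243% of L6F cells had no UMI of the S phase list, and 34.1% and 1.09% none of the mitosis list.

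Hells is shown as the S phase gene with the highest ratio among those whose promoter holds an E2F site, since E2F factors switch on replication genes at the start of S phase. The 250 bases before its RefSeq start (GRCm38.p6, chr19:38930740-38930989, + strand) have 1 match in capitals.

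Hells: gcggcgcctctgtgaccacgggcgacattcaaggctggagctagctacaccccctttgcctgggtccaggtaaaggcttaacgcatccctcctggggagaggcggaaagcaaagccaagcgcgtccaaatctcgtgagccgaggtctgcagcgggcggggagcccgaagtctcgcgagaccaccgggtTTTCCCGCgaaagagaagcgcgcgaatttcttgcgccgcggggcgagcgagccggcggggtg

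Either of 2 letter patterns, TTTCCCGC or TTTGGCGC, on either strand, was found in 7 of the 37 S phase genes with a promoter in the table (18.9%) and in 1.51% of all 27025. A match describes the letters only.

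Of sterol, sugar and one-carbon metabolism, most listed genes were higher in CPM, against 14.3% of all measured genes. Per cell each measured gene of the 3 lists was higher, as were 91.8% of all measured genes. In cholesterol synthesis and uptake 19 of 23 were higher in CPM and 0 lower (median log2 ratio 1.49). Pmvk and Idi1 of the mevalonate route were 6.37-fold (4.51 to 9.33) and 6.01-fold (4.63 to 7.95) higher, and Fdps, which makes farnesyl diphosphate, and Cyp51, a sterol demethylase, 5.33-fold and 4.63-fold. Srebf2, the regulator of the pathway, passed no limit in CPM (41.4 and 67.3). The promoters of this list were also searched, for the sterol motif TCACNCCAC, where N is any base. It was found in 1 of the 17 genes with a promoter in the RefSeq table (Hmgcs1, 5.88%) and in 1.22% of all 27025. Fabp5, a fatty acid carrier and 1 of the 12 genes with the highest ratios, had 76 UMIs at rest and 11268 after L6F (82.7 and 704 CPM, 8.51-fold, 6.79 to 10.8), and was detected in 7.54% and 46.6% of thinned cells.

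Of 14 glycolysis genes 9 were higher and 0 lower (median 1.41). Ldha, lactate dehydrogenase A, had 538 and 1775 CPM, Pgam1 215 and 850.1, Tpi1 133 and 500.5, and Gapdh 923 and 2545. The hexokinase gene Hk1 and the glucose transporter gene Slc2a1 passed no limit in CPM. In serine, one-carbon and nucleotide synthesis 20 of 28 were higher and 0 lower. Mthfd2, the mitochondrial folate enzyme, was 4.85-fold higher (3.76 to 6.37), Psat1 and Phgdh of serine synthesis 4.88-fold and 3.71-fold, and Odc1, the first enzyme of polyamine synthesis, 4.69-fold. Asns, asparagine synthetase, was 8.46-fold higher (3.29 to 31.2, 4 rested UMIs), and Atf4, which controls it, 2.12-fold. Asns was under 10 CPM at rest and so measured only through its L6F level. Slc19a1, the folate carrier, and Slc29a1, a nucleoside transporter, were 4.95-fold and 3.18-fold higher.

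In the lists for making and folding protein, some genes were higher in CPM and others passed no limit. Of all measured genes 14.3% were higher in CPM and 14.0% lower. In ribosome biogenesis 12 of 35 were higher in CPM and 0 lower (median 0.91). Ncl, nucleolin, had 1307 and 4382 CPM (3.35-fold, 3.17 to 3.55), and Npm1, nucleophosmin, 2554 and 6869, the latter being 311 and 4441 UMIs per 100 cells. The median thinned cell had 7 UMIs of the list at rest and 18 after L6F. Counts higher in CPM were 13 of 23 for aminoacyl-tRNA synthetases, 11 of 41 for translation factors, 12 of 36 for proteasome genes, 12 of 25 for heat shock and TRiC chaperones and 23 of 78 for mitochondrial ribosomal proteins, with 0 lower in each. Examples were Iars (3.78-fold), Eif5a (2.41-fold), Psmd12 (3.02-fold), Hspd1 (3.75-fold) and Mrps6 (3.88-fold). The 82 measured cytosolic ribosomal protein genes took a smaller share: together they were 33.6% of rested UMIs and 25.8% of L6F UMIs (median log2 ratio -0.37, 2 higher, 3 lower). Per cell the same genes went from 408 to 1668 UMIs, and all 82 were higher, as were 91.8% of all measured genes. The 13 mitochondrially encoded genes passed no limit in CPM (median -0.30). Of 75 nuclear genes of the respiratory chain 6 were higher in CPM and 0 lower, against 14.3% and 14.0% of all measured genes.

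**Figure D4:**
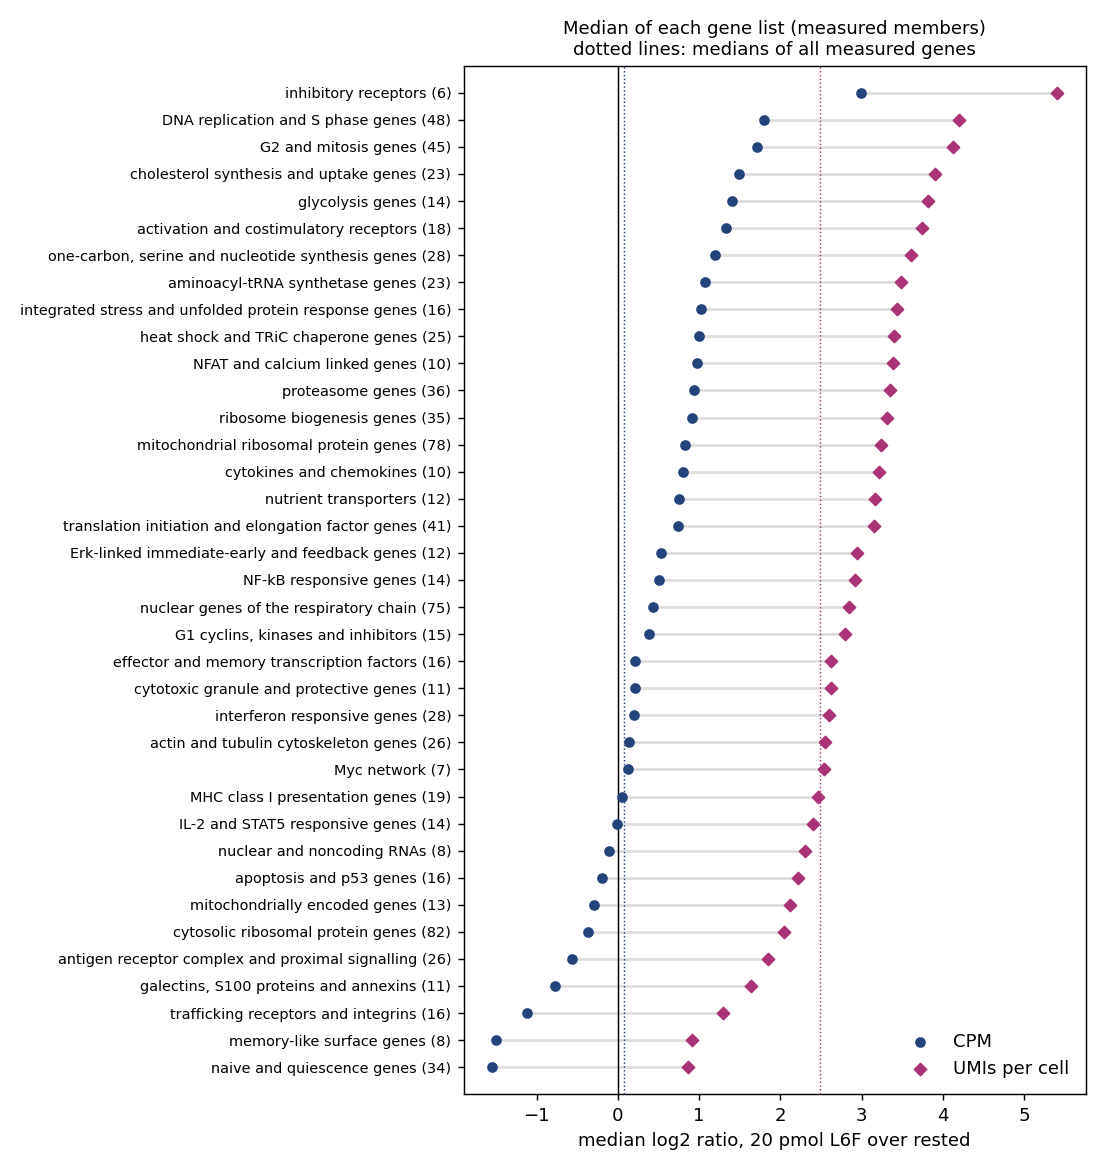
Median log2 ratio of 20 pmol L6F over rested (horizontal axis) for the measured members of each of 37 gene lists (number in brackets), in CPM (circles) and UMIs per cell (diamonds), with dotted lines at the medians of all measured genes, 0.08 and 2.48. S phase and mitosis genes lie farthest to the right after the inhibitory receptors, whose 6 members were measured only through their L6F level, and naive, memory-like and trafficking genes farthest to the left in CPM while staying right of 0 per cell.

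Survival genes and nuclear RNAs differed by scale. Bcl2, the survival factor that IL-7 sustains in resting cells, was 7.20-fold lower in CPM (6.65 to 7.79, 976 to 136), with 119 and 87.6 UMIs per 100 cells, and its relative Bcl2l1 was 2.26-fold higher. Socs2, induced by STAT5, was 3.97-fold higher and Socs1, Socs3 and Il2rg were lower, so that the IL-2 and STAT5 list had 2 higher and 4 lower of 14, against 14.3% and 14.0% of all measured genes. Bbc3, which encodes the apoptosis protein PUMA, was 3.66-fold lower. Malat1, a nuclear noncoding RNA, had 7892 CPM at rest and 1683 after L6F, with 961 and 1088 UMIs per 100 cells, and Neat1, a noncoding RNA of nuclear paraspeckles, had 146 and 23.7 CPM. Gm42418, which overlaps ribosomal RNA, had 21764 and 4846 CPM. None of 19 MHC class I presentation genes passed a limit in CPM, with B2m at 1048 and 536, and all 19 were higher per cell, as were 91.8% of all measured genes. Of 11 measured galectins, S100 proteins and annexins 4 were lower in CPM (S100a4, S100a6, S100a11 and S100a13) and 0 higher. The shares of all measured genes were 14.0% and 14.3%. Tmsb4x, thymosin beta 4, was the 1 of 26 cytoskeleton genes lower in CPM (2.26-fold), while Stmn1, Tubb5 and Tuba1b of the microtubules were 3.62-, 2.42- and 2.82-fold higher.

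The 79 L6F cells that held no more UMIs than the rested 95th percentile were looked at apart. Against the same 755 rested cells 700 genes were higher in CPM in them and 157 lower, where the smaller number of UMIs limits what can be called. The naive and quiescence list had a median log2 ratio of -0.69 there, and Klf2 one of -2.57 against -4.42 in all cells. Gbp2, Il2ra and Fabp5 had 4.13, 3.07 and 2.31. In the same cells Ccr9, Itgae, Irf7, Rtp4 and S100a4, lower in CPM over all cells, had ratios above 0, of 0.74, 1.12, 2.27, 1.12 and 1.75, from few UMIs. A gene without a UMI in the 79 cells was set at the floor of 3 counts. For a gene with few rested UMIs that floor alone can give a ratio above 0. The ratio of Ccr9 is the one that 3 counts give against its 13 rested UMIs. Those of Itgae and Rtp4 can also come from the floor. The ratios of Irf7 and S100a4 are higher than the floor can give a gene with 10 CPM or more at rest. The cells were picked by depth, which is itself higher in L6F cells, so this describes them only.

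The levels on 20 pmol L6F were set beside those of the 80 pmol L6F and 20 pmol M9C cultures. Comparisons of these with rest would share the rested culture, so the stimulated cultures are compared directly. Between 20 and 80 pmol L6F, Klf2 was 26.3 and 37.9 CPM (1.44-fold lower at 20 pmol), Ccl4 151 and 99.2 (1.52-fold higher), Gzmb 248 and 186, and Batf3 78.1 and 55.3. Gbp2 at 549 and 533 CPM, Lag3 at 67.6 and 70.4 and Hist1h1b at 1613 and 1614 had log2 ratios of 0.04 (-0.00 to 0.09), -0.06 (-0.18 to 0.07) and -0.00 (-0.03 to 0.03).

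At the matched dose of 20 pmol, Tnfrsf4, Il2 and the chemokine and interferon genes named here were lower on L6F than on M9C. Tnfrsf4 had 51.6 CPM on L6F and 279 on M9C (5.41-fold), Ccl3 84.8 and 465 (5.49-fold), Ifng 34.0 and 139 (4.10-fold), Ccl4 151 and 565 (3.74-fold), and Il2 3.68 and 33.1. Ctla2a, a protease inhibitor gene, and Ly6c2, a surface antigen of memory-like cells, were 8.68-fold and 4.42-fold higher on L6F. Arl4c and S1pr1, low on both, were 2.81-fold and 2.50-fold higher on L6F than on M9C, at 54.6 against 19.4 and 3.68 against 1.47 CPM. Il2ra (176 and 179 CPM; log2 ratio -0.02, -0.10 to 0.06), Egr3 (19.4 and 19.6; -0.01, -0.26 to 0.23) and Hist1h1b (1613 and 1598; 0.01, -0.01 to 0.04) had intervals that included equality, which leaves differences within those bounds. With 1 culture per condition, none of these differences has a replicate check.

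**Figure D5:**
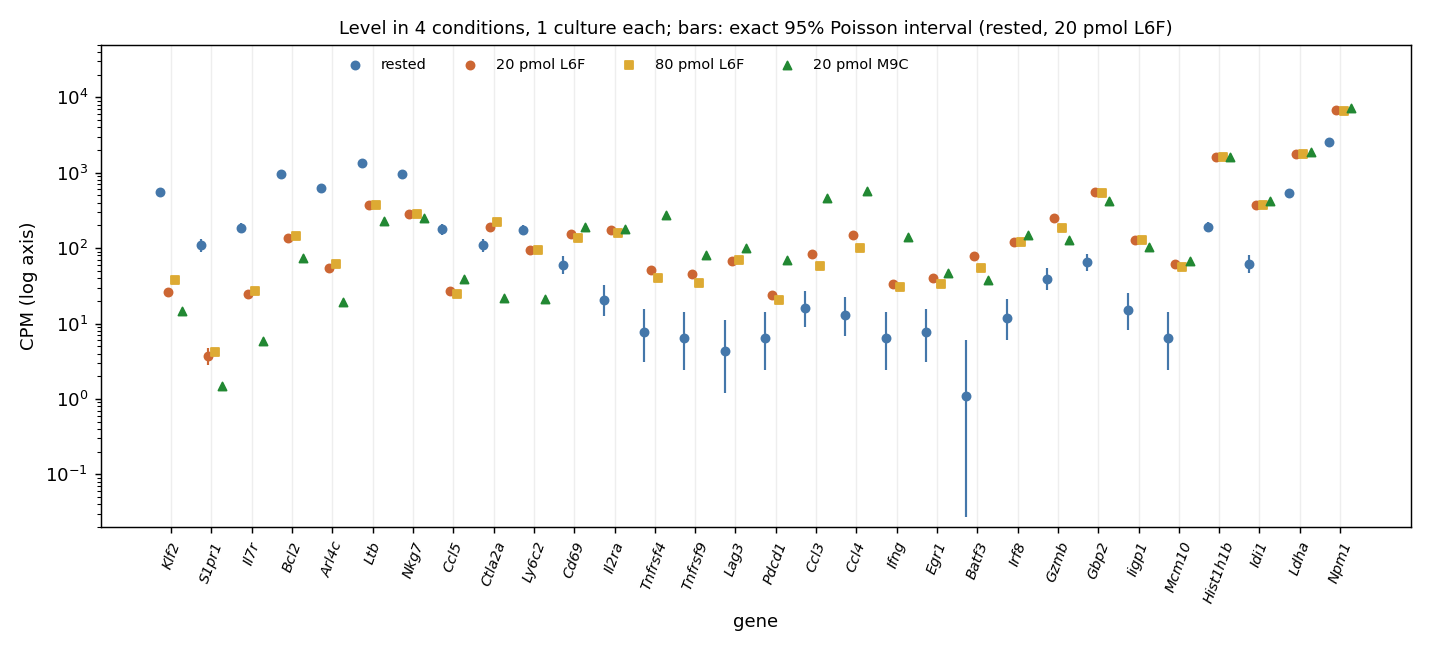
CPM (vertical log axis) of 30 named genes (horizontal axis) in rested cells and cells on 20 pmol L6F, 80 pmol L6F and 20 pmol M9C, 1 culture each, with exact 95% Poisson intervals as bars for the rested and 20 pmol L6F points. For Gbp2, Lag3 and Hist1h1b the points of both L6F doses lie together and above rest, and M9C stands apart from them for Tnfrsf4, Ccl3, Ccl4, Ifng, Ctla2a and Ly6c2.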

How the data were processed

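Splenic CD8+ T cells of 6 cultures were stained with hashtag antibodies, sorted as live cells and run together in a single 10x Genomics lane, per the labels' protocols. The deposited matrix holds UMI counts per gene and counts per hashtag, and the submitters' processing notes name bcl2fastq, Cell Ranger 6.0.1 and the build GRCm38 (mm10). How cells were called, and with which gene annotation, was not given in the sources used here. Each of the 13439 deposited barcodes holds at least 500 UMIs. The hashtag for each culture came from the deposited key.

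Cells were assigned and filtered by the limits given at the start of the report, counts were summed per condition and divided to CPM or UMIs per cell, and a gene with 0 UMIs in a condition was set at a floor of 3 counts for ratios. Clopper-Pearson intervals came from scipy 1.17.1 (Python 3.11.15). On simulated counts of 32285 genes, 95.4% of measured genes had the true ratio inside the interval, and 100% of genes changed by a log2 ratio of 2, 3, -2 or -3 were called in the true direction. The simulated counts were Poisson draws per gene and condition, without variation between cells or cultures. They check the code only, not how the intervals hold for genes whose UMIs lie in few cells. The hashtag rule left out cells in which no hashtag reached the required share of the hashtag counts. A multiplet of cells from different cultures can pass this rule when a single culture supplies most of its hashtag counts. Median hashtag counts differed, at 1040.0 in rested and 6091 in 20 pmol L6F cells. No doublet caller was run, so multiplets of cells from the same culture remain, and some from different cultures can remain too. HTODemux in Seurat 5.3.0 was an alternative. Cells were thinned to 1000 UMIs with a fixed seed. Gene positions are from GENCODE vM21 and promoters from RefSeq (GRCm38.p6).

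The comparison, the 37 gene lists and the 12 sets of cell type markers were chosen with earlier results of these data known, and 2 list symbols were not matched. Genes named were the 12 highest and 12 lowest ratios on each scale, ranked by whichever interval bound lay closer to 0, of genes reaching 50 CPM in a condition, leaving out antigen receptor segments, ribosomal protein, mitochondrial and marker genes and genes named only Gm or Rik, plus the 4 highest and 4 lowest of each list and 12 genes set by name. Other members, the genes held by few cells and those of the stimulated cultures were named to complete a group with their values known. Close gene copies (Bcl2a1, Gbp, Gzm, Hist1, Ctla2 and Ly6c families) can share reads, so their values are uncertain. Alternatives changed the hashtag rule, cell filters, cell weighting, scaling, minimum level and depth.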

Additional observations from a re-analysis of the deposited data

Results flagged for a closer look

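HTODemux, the alternative way of reading hashtags, called 104 barcodes rested that the 80% rule left out. They held 224569 UMIs and stood outside every comparison above. Mcpt8, a basophil protease gene, was at 1385 CPM in them (311 UMIs, in 5 of the 104 barcodes), against 2.18 CPM in the rested cells used. Prss34 and Cpa3, protease genes of basophils and mast cells, were at 877 and 312 CPM there, against 1.09 and 8.71 CPM. The difference lies in 5 or 6 barcodes and has no replicate behind it.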

How the results depend on the processing

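No paired analysis was possible because each condition was 1 culture and no test was made. In CPM 1103 genes were higher and 1078 lower. Counted anew over the genes measured under each setting, 274 were higher at 1000 or more genes per cell, which left 47 rested cells. With 50 CPM as the minimum, which leaves fewer genes, 640 were higher and 339 lower. With no minimum 1624 were lower, and 1756 were lower when CPM left out ribosomal protein and mitochondrial genes, Malat1 and Gm42418. In UMIs per cell, 7084 were higher and 75 lower. At 1000 genes these were 2716 and 345, at 50 CPM 3238 and 21, with no minimum 117 were lower, and with HTODemux 127. The 6.02-fold difference in median UMIs was 5.67 with 50 hashtag counts and 90%, 7.50 at 200 genes, 2.58 at 1000 genes, and 5.25 without cells holding at least 2 UMIs of another cell type's markers.

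Of the list medians 560 of 590 alternative values in CPM and 359 of 444 per cell moved by less than 1.5-fold. Among medians at least 2-fold from equality, 2 values on each scale changed sign. Changes of sign in smaller medians were not counted. At 1000 genes the log2 CPM medians or ratios turned to -0.42 for mitosis genes, -0.26 for Bhlhe40, -0.0388 for Birc5, -0.0832 for Egr3, -0.73 for Nr4a3, -0.38 for Stmn1, 0.0412 for Cd48, 0.12 for Ltb and 0.21 for Ccr7. Per cell they turned to -0.39 for the trafficking list, -0.91 for galectins, S100 proteins and annexins, and 0.38 for Pik3ip1. The cause of these was not tested. Genes in few rested cells turned per cell as well. Without cells above 3 times the median, Elane was at 0.46, Hbb-bs at 1.85, Hbb-bt at 0.68, Mpo at 2.32 and Prtn3 at 2.12, where Mpo and Hbb-bs had no rested UMI and stood at the floor of 3 counts. With 50 hashtag counts and 90%, Elane was at 0.68, Mpo at 1.29 and Prtn3 at 0.54, each against that floor.

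3 selections of cells were chosen after seeing the data. In the 79 shallow L6F cells 700 genes were higher and 157 lower in CPM, 1370 were higher per cell, and the ratio of median UMIs was 1.54. There the trafficking list turned to 0.0486 and single log2 ratios to 0.55 for Ccl5, 0.74 for Ccr9 and Runx1, -0.14 for Cd200, 2.27 for Irf7, 1.12 for Itgae and Rtp4, 1.75 for S100a4, 0.66 for S100a6 and 1.16 for Xaf1, and per cell to 1.14 for Ccr9 and 1.52 for Itgae. In those 79 cells a gene without a UMI stood at the floor of 3 counts, which alone can turn a ratio. With a CD8 T cell marker UMI required and at most 3 times the median, Hbb-bs was at 1.47 per cell, again at that floor. Genes with under 10 UMIs in either condition have wide intervals, and the rested cells hold the smaller total of UMIs.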
